A study of Homo sapiens with 12 samples.

Results

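The hepatocyte transcription factor network is the set of DNA-binding proteins that establish and maintain gene expression of liver parenchymal cells. It was followed here through 8 genes chosen by symbol, namely HNF4A, FOXA1, FOXA2, FOXA3, CEBPA, CEBPB, PROX1 and NR1H4, out of 58174 genes listed. Each of the 8 symbols matched 1 gene in both tables. Poly-A-enriched RNA was sequenced from Hep-G2, a line derived from a liver tumour, and BE(2)-C, a line derived from a neuroblastoma. Cells were transfected with a control siRNA (siC) or with a pool of siRNAs against the RNA-binding protein IGF2BP1 (siI1) and harvested after 72 h. Each of the 4 groups comprised 3 libraries, 12 in total, and the siRNA concentration was higher in BE(2)-C than in Hep-G2. All cells grew in medium with fetal bovine serum, and both lines are tumour-derived, so neither stands for normal hepatocytes. The methods of the study call the replicates biological, while the labels do not say whether they were separate cultures, and p-values measure the spread between these libraries only.

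HNF4A is a nuclear receptor that binds the promoters of a large share of liver genes. The FOXA proteins are pioneer factors that open liver enhancers during development, and the C/EBP proteins are leucine zipper factors, of which C/EBPα is linked to differentiation and C/EBPβ to the acute phase response and regeneration. PROX1 is a homeodomain protein of embryonic hepatoblasts and a corepressor of HNF4A, and NR1H4 encodes FXR, the bile acid receptor, which acts as a heterodimer with RXRα and induces the repressor SHP, encoded by NR0B2.

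Expression is given as FPKM, the read counts per gene length and library size, scaled by the authors within each line. Reads counted on genes ranged from 13398903 to 15176939 per library in Hep-G2 and from 12852988 to 15721210 in BE(2)-C. Genes reaching an FPKM of 0.1 in 3 or more of the 6 libraries of a line were tested on log2(FPKM + 0.1), a scale on which changes of weakly expressed genes are understated. A gene was called when limma gave a two-sided p-value below 0.05 after Benjamini-Hochberg adjustment over all tested genes. On simulated data the share of false calls exceeded this level in both lines, so calls near the threshold are less certain. SE below is the standard error of a log2 fold change. The knockdown was visible in every library. IGF2BP1 had 48.5, 46.6 and 50.8 FPKM with siC and 12.6, 10.7 and 10.7 FPKM with siI1 in Hep-G2. In BE(2)-C the values were 21.3, 20.6 and 21.6 FPKM against 4.85, 4.75 and 4.87 FPKM. The log2 fold changes were -2.10 and -2.11, and no siI1 library came near a siC library. Of its paralogs, IGF2BP3 was called higher in BE(2)-C (log2 fold change 0.34) and not called in Hep-G2 (-0.11), where IGF2BP2 was not called either (-0.14); IGF2BP2 had at most 3 reads in any BE(2)-C library.

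In Hep-G2, replicate 1 of siI1 stood apart from the other siI1 libraries in a length-dependent manner. Among genes with at least 1 FPKM in each of the 6 libraries, its 1774 genes of at most 2000 nt lay at a median of -0.13 log2 units from the siI1 mean, and its 3854 genes of at least 6000 nt at 0.09. The other 11 libraries of the study deviated by -0.05 to 0.09 for short genes and by -0.05 to 0.03 for long genes. These length limits were set after the data were seen. Over all tested genes, a larger set, the median log2 fold change (siI1 over siC) in Hep-G2 was 0.15 for 6490 short and -0.16 for 4878 long genes, against 0.05 and 0.06 for 5894 and 4976 genes in BE(2)-C.

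Upon IGF2BP1 knockdown, 7 of the 8 network genes were called in Hep-G2, where 44.8% of all tested genes were called. CEBPA, NR1H4, FOXA3, FOXA2, FOXA1 and HNF4A were higher and PROX1 was lower. Thus 6 genes were called higher, against 21.9% of all tested genes, and 1 was called lower, against 23.0%. CEBPB was not called. The median log2 fold change was 0.40 for the 8 genes and 0.01 for all tested genes. Giving each library an equal sum of FPKM moved the Hep-G2 median of all tested genes by -0.16, and higher genes then made up 35.5% of all calls in place of 48.8%. Median centring moved that median the other way, by 0.09, with 57.6% of calls higher; 6 network genes were then higher and PROX1 was not called. With equal sums 4 of the 6 genes were still called higher, while HNF4A (log2 fold change 0.05, adjusted p = 0.45) and FOXA1 (0.17, adjusted p = 0.12) were not called. Over the alternatives run, adjusted p ranged from 0.0020 to 0.45 for HNF4A and from 7.5e-04 to 0.12 for FOXA1. Without siI1 replicate 1, the library that stood apart, 6 genes were likewise higher and 1 lower, with log2 fold changes of 1.90 for CEBPA, 0.96 for FOXA3, 0.88 for NR1H4, 0.50 for FOXA2, 0.29 for FOXA1, 0.23 for HNF4A, 0.12 for CEBPB and -0.60 for PROX1.

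**Figure D1:**
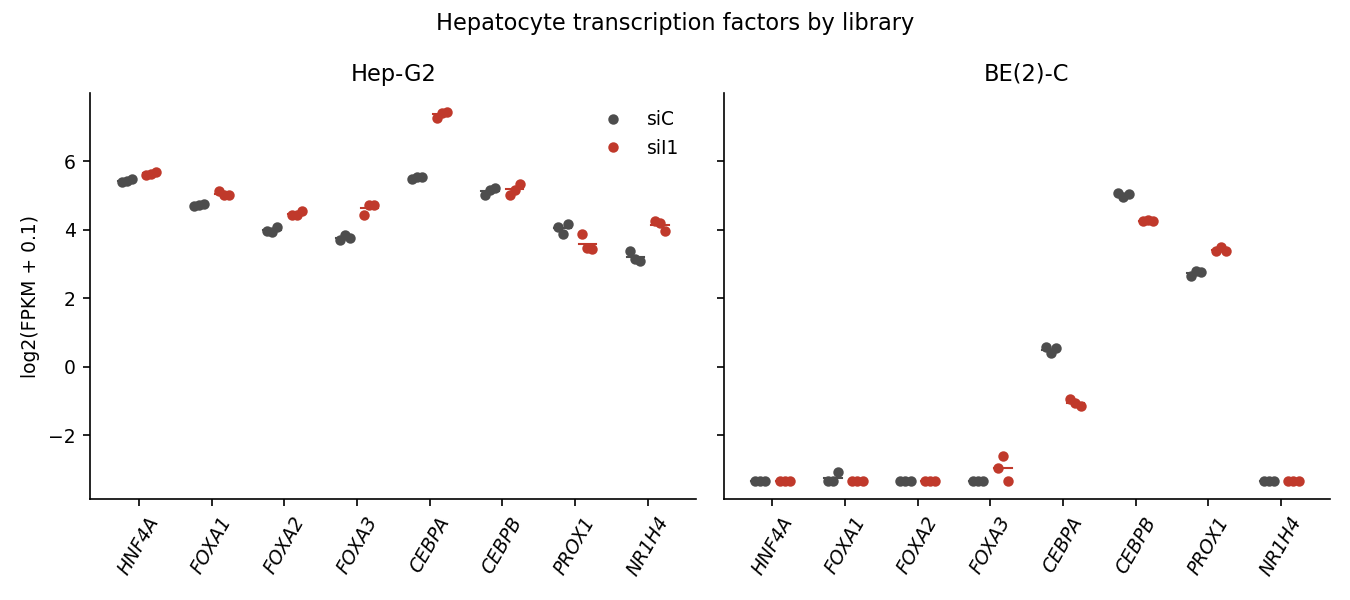
Expression of the 8 genes in each library as log2(FPKM + 0.1), with points for single libraries, bars for group means (n = 3), grey for siC and red for siI1. CEBPA rose from 44.2 to 46.3 FPKM with siC to 153 to 173 FPKM with siI1 in Hep-G2, whereas HNF4A, FOXA2 and NR1H4 lay at 0 FPKM in all BE(2)-C libraries.

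HNF4A lies at chr20:44355699-44432845 on the plus strand of hg38. Its FPKM in Hep-G2 was 41.7, 43.0 and 44.1 with siC, against 48.7, 49.2 and 51.6 with siI1. All siI1 libraries were above all siC libraries, but the distance was small. The log2 fold change was 0.21 (SE 0.05, adjusted p = 0.012), a smaller absolute change than that of most tested genes, 25.3% of which changed less. The call was lost without siC replicate 1 (0.19, adjusted p = 0.055). HNF4A-AS1, which is transcribed from the opposite strand within HNF4A, was also higher (log2 fold change 0.60, adjusted p = 0.0092), with 56 to 116 reads in each library. The libraries were strand-specific, but the strand setting used in counting is not stated, so reads of overlapping genes on opposite strands cannot be told apart.

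The 3 FOXA genes were called higher in Hep-G2, FOXA1 not so with equal sums of FPKM, and FOXA3 changed the most. FOXA3 had 13.0, 14.3 and 13.3 FPKM with siC and 21.6, 26.3 and 26.4 FPKM with siI1. All siI1 values exceeded the siC values, and replicate 1 was the lowest of the siI1 group. The log2 fold change of FOXA3 was 0.86 (SE 0.09, adjusted p = 3.8e-04). FOXA2 had 15.5, 15.3 and 16.9 FPKM with siC and 21.3, 21.4 and 23.4 FPKM with siI1, again without overlap. Its log2 fold change was 0.47 (SE 0.06, adjusted p = 0.0011). FOXA1, the FOXA gene with the highest expression, had 25.9, 26.1 and 26.6 FPKM with siC and 35.1, 31.9 and 32.3 FPKM with siI1. Its groups did not overlap either, at a log2 fold change of 0.34 (SE 0.05, adjusted p = 0.0024).

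These unequal changes shifted the composition of the family. Summed over the 3 genes, FOXA expression was 55.6 ± 1.2 FPKM (SD, n = 3) in the control and 79.9 ± 2.1 FPKM (SD, n = 3) after knockdown. FOXA3 made up 23.9%, 25.7% and 23.5% of that sum with siC and 27.7%, 33.0% and 32.2% of it with siI1. The share of FOXA1 was 46.8% to 47.6% with siC and 39.3% to 45.0% with siI1, while that of FOXA2 overlapped between the groups, at 27.4% to 29.7% and 26.9% to 28.5%. These shares are given as a description and were not tested. FOXA1 overlaps TTC6 on the opposite strand by 431 bases, and TTC6 was higher as well (log2 fold change 0.84, adjusted p = 7.7e-04). LINC00261, a noncoding neighbour of FOXA2, had at most 2 reads in any Hep-G2 library.

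**Figure D2:**
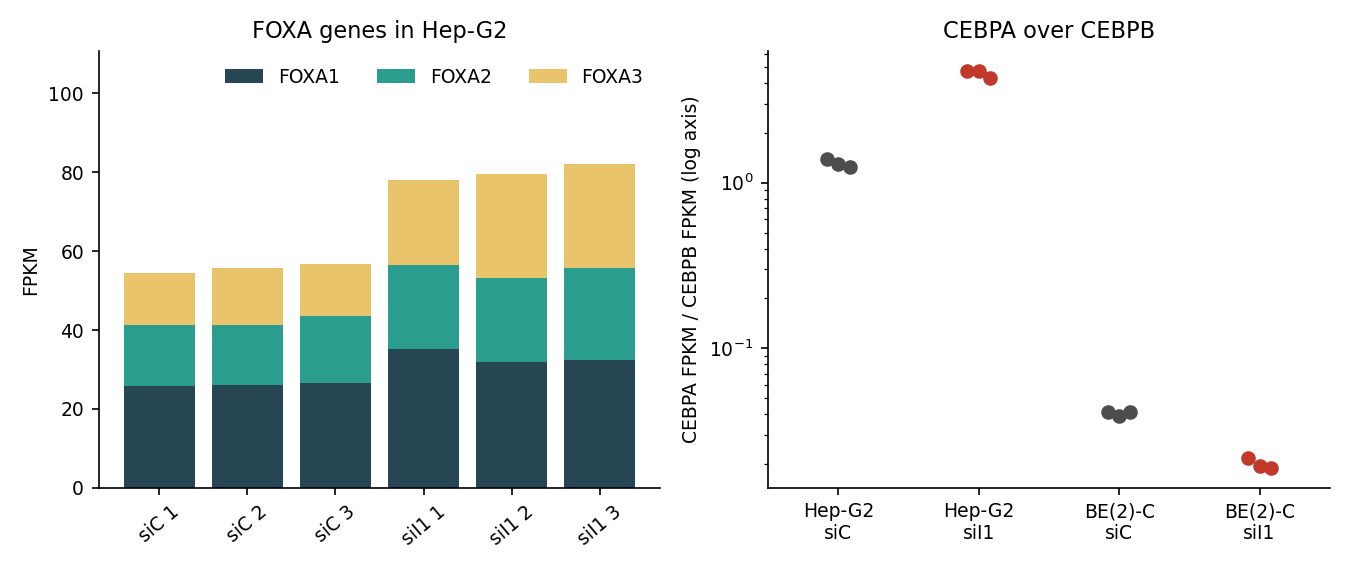
Left, FPKM of FOXA1, FOXA2 and FOXA3 stacked for each Hep-G2 library; right, the ratio of CEBPA to CEBPB FPKM in each library on a log axis. The FOXA sum lay at 54.3 to 56.7 FPKM with siC and 78.0 to 82.1 FPKM with siI1, and the ratio moved up in Hep-G2 and down in BE(2)-C.

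CEBPA showed the largest change of the network in Hep-G2. Its FPKM was 44.2, 46.3 and 46.3 with siC, against 153, 169 and 173 with siI1. The siC libraries lay close together and far below every siI1 library. The fold change was 3.61 (log2 fold change 1.85, 95% interval 1.70 to 2.00, adjusted p = 5.1e-06), and 96.0% of tested genes had a smaller absolute change. CEBPB, in contrast, had 32.2, 35.7 and 37.2 FPKM with siC and 32.4, 35.6 and 40.4 FPKM with siI1. Its groups overlapped almost fully, with a log2 fold change of 0.04 (95% interval -0.18 to 0.27, adjusted p = 0.74). The ratio of CEBPA to CEBPB was accordingly 1.25 to 1.38 with siC and 4.28 to 4.74 with siI1. The summed FPKM of both was 80.7 ± 3.8 (SD, n = 3) in the control and 201 ± 14 (SD, n = 3) after knockdown.

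CEBPA-DT, a divergent noncoding gene that starts 323 bases from CEBPA on the opposite strand without overlapping it, had 4.42, 4.74 and 3.27 FPKM with siC and 8.51, 9.40 and 11.0 FPKM with siI1. Its groups did not overlap, at a log2 fold change of 1.21 (SE 0.16, adjusted p = 0.0010). CEBPB-AS1, antisense to CEBPB, was not called (log2 fold change 0.12, adjusted p = 0.82), with 5 to 15 reads in each library. Of the 7 noncoding neighbours listed, 6 were matched by Ensembl identifier and 5 were tested in Hep-G2. Of these 5, 4 were higher, against 21.9% of all genes tested in Hep-G2. A further 2 unnamed antisense genes overlap CEBPA, with at most 107 and 66 reads in any Hep-G2 library against at least 1662 for CEBPA.

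NR1H4 rose alongside CEBPA and FOXA3. Its FPKM in Hep-G2 was 10.2, 8.69 and 8.41 with siC, against 19.0, 18.1 and 15.5 with siI1. The lowest siI1 library was above the highest siC library. The log2 fold change was 0.94 (SE 0.11, adjusted p = 5.3e-04). RXRA, encoding the dimer partner of FXR, was not called (log2 fold change -0.07, adjusted p = 0.58).

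PROX1 was the 1 network gene called lower in Hep-G2, a call that single libraries and settings ended. Its FPKM was 16.9, 14.6 and 18.0 with siC, against 14.7, 10.9 and 10.7 with siI1. Replicate 1 of siI1, the library that stood apart for long genes, lay just above the lowest siC library, so the groups overlapped; PROX1, at 8928 nt, is the longest of the 8 genes. The log2 fold change was -0.45 (SE 0.14, adjusted p = 0.036). Without siI1 replicate 1 it was -0.60 (adjusted p = 0.0030). The call was lost without siC replicate 1 (-0.43), siC replicate 3 (-0.39), siI1 replicate 2 (-0.39) or siI1 replicate 3 (-0.37), and with median centring of the libraries (-0.36, adjusted p = 0.075), over a range of adjusted p from 0.0030 to 0.11 across the alternatives run. The part of gene length in this change was not tested. PROX1-AS1, which overlaps PROX1 on the opposite strand, went the other way, with 0.351, 0.406 and 0.369 FPKM with siC and 1.16, 1.23 and 1.25 FPKM with siI1 (log2 fold change 1.47, adjusted p = 6.1e-04).

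Ordered by mean FPKM, the network ran in Hep-G2 with siC from CEBPA (45.6), HNF4A (42.9), CEBPB (35.0) and FOXA1 (26.2) to PROX1 (16.5), FOXA2 (15.9), FOXA3 (13.5) and NR1H4 (9.11). CEBPA and HNF4A differed by little more than their spread, and the ranges of PROX1 and FOXA2 overlapped. With siI1 the order was CEBPA (165), HNF4A (49.8), CEBPB (36.2), FOXA1 (33.1), FOXA3 (24.8), FOXA2 (22.1), NR1H4 (17.5) and PROX1 (12.1). The upper 4 places were thus held by the same genes, PROX1 moved to the last place, and the ranges overlapped between CEBPB and FOXA1 and between FOXA3 and FOXA2. In BE(2)-C, whose table was normalized on its own, the order was CEBPB (32.3), PROX1 (6.59) and CEBPA (1.32) with siC and the same with siI1 (19.1, 10.5 and 0.383), each far apart relative to its spread.

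The genes whose log2(FPKM + 0.1) over the 6 Hep-G2 libraries was most like that of each called network gene were identified among 12822 other tested protein-coding genes. These were MKNK2 and SSC4D for CEBPA, CYP27A1 and GAA for FOXA3, CRIP3 and SLC6A12 for NR1H4, and EP300 and GPR75 for PROX1. For HNF4A they were POLM and KDM4B, for FOXA1 CCDC142 and WDR41, and for FOXA2 MED31 and SETD4. Pearson's r ranged from 0.9961 for KDM4B to 0.9999 for MKNK2 and SSC4D. This is a description over 6 libraries that share the siRNA contrast, and 1912 genes had an r above 0.95 with CEBPA.

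In BE(2)-C, 5 of the 8 network genes were at or near 0. HNF4A, FOXA2 and NR1H4 had no read in any of the 6 libraries, which allows at most 0.032, 0.090 and 0.068 FPKM, respectively, when 3 reads per library are taken as the limit for counting error. FOXA1 had 1 read and FOXA3 had 3 reads over all 6 libraries. The remaining 3 genes were tested and all 3 were called, where 28.2% of tested genes were called. CEBPA and CEBPB were lower, against 14.8% of all tested genes, and PROX1 was higher, against 13.3%.

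CEBPA was expressed at a low level in BE(2)-C, with 1.38, 1.22 and 1.36 FPKM with siC and 0.418, 0.376 and 0.356 FPKM with siI1, from 13 to 52 reads per library. Every siI1 library was below every siC library. The log2 fold change was -1.55 (SE 0.16, adjusted p = 8.8e-04), and it was -0.74 with a pseudocount of 1. CEBPB had 33.4, 30.9 and 32.7 FPKM with siC and 19.1, 19.3 and 18.8 FPKM with siI1. The groups were far apart relative to their spread, at a log2 fold change of -0.76 (SE 0.04, adjusted p = 1.6e-04). The ratio of CEBPA to CEBPB fell from between 0.0393 and 0.0416 to between 0.0190 and 0.0218. PROX1 had 6.23, 6.89 and 6.66 FPKM with siC and 10.2, 11.2 and 10.2 FPKM with siI1. Its groups did not overlap, with a log2 fold change of 0.67 (SE 0.07, adjusted p = 7.6e-04). PROX1-AS1 was also higher in BE(2)-C (0.57, adjusted p = 0.042), and CEBPA-DT was not called (-0.78, adjusted p = 0.13).

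The effect of the knockdown differed between the lines for all 3 genes tested in both. The difference of the log2 fold changes, Hep-G2 minus BE(2)-C, was 3.40 for CEBPA (95% interval 3.18 to 3.62, adjusted p = 3.8e-09). It was 0.80 for CEBPB (95% interval 0.56 to 1.04, adjusted p = 1.7e-04) and -1.12 for PROX1 (95% interval -1.48 to -0.76, adjusted p = 2.9e-04). Such a difference was called for 40.2% of all 15362 genes tested in both lines. CEBPA and PROX1 thus changed in opposite directions in the lines, whereas CEBPB fell in BE(2)-C and was not called in Hep-G2. The tables were normalized separately, and only changes within each table enter this test. For CEBPA the joint model gave the difference an SE of 0.10, below the SE of 0.16 for the BE(2)-C change alone. The interval of that difference may thus be too narrow.

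**Figure D3:**
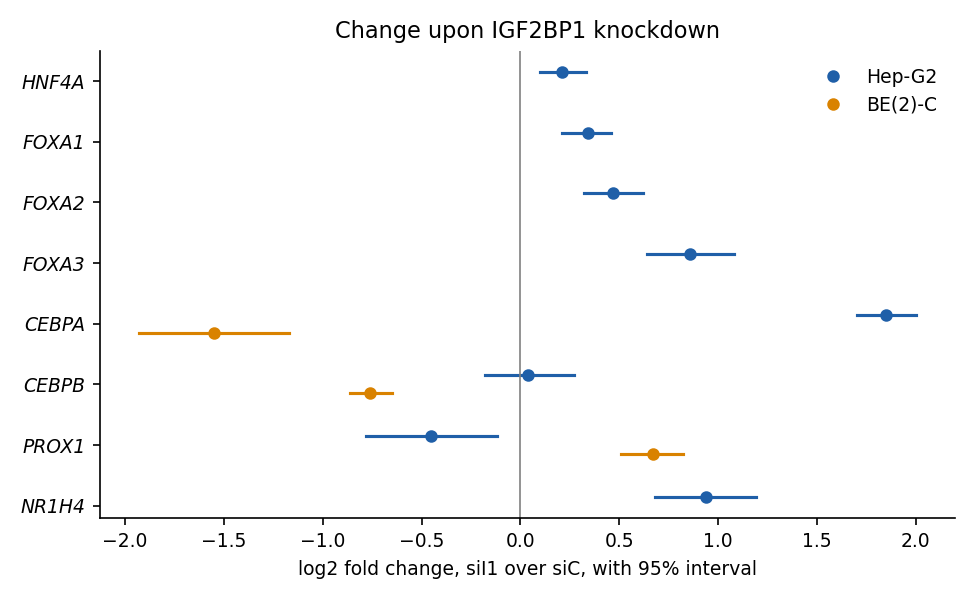
Log2 fold change of siI1 over siC for each tested network gene with its 95% interval, Hep-G2 in blue and BE(2)-C in orange (n = 3 libraries per group). CEBPA stands at 1.85 (Hep-G2) against -1.55 (BE(2)-C) and PROX1 at -0.45 against 0.67, the former not called with median centring.

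A list of 25 other liver transcription factors and cofactors was split in Hep-G2, with 8 lower and 8 higher (10 and 7 with equal sums of FPKM) and a median log2 fold change of -0.07. Of all genes tested in Hep-G2, 23.0% were lower and 21.9% higher. The lower genes with the largest changes were NR0B2, ONECUT2 (-1.56), PPARGC1A (-1.12), the coactivator PGC-1α of fasting metabolism, and NR5A2 (-0.91), a nuclear receptor of bile acid synthesis. Among the higher genes were MLXIPL (1.02), which encodes the glucose-responsive factor ChREBP, NR2F2 (0.93) and NR1H3 (0.79), the oxysterol receptor LXRα. ONECUT1 was not called (1.02, adjusted p = 0.052), with 20 to 108 reads in each library. Of the 25 genes, 18 were tested in BE(2)-C, where 5 were lower and 3 were higher. Of all genes tested in BE(2)-C, 14.8% were lower and 13.3% higher. KLF15 (-0.99), NR1H3 (-0.82), CEBPG (-0.48) and RXRA (-0.45) were among the lower and ONECUT2 (0.55), NR2F1 (0.51) and NR2F2 (0.22) were the higher genes. Without siI1 replicate 2 or siI1 replicate 3, 1 gene was called higher.

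NR0B2, the classical FXR target, moved against NR1H4 in Hep-G2. Its FPKM was 79.9, 94.7 and 86.6 with siC, against 21.0, 23.5 and 22.9 with siI1. All siI1 libraries were far below all siC libraries, at a log2 fold change of -1.95 (SE 0.08, adjusted p = 9.5e-06). The ratio of NR0B2 to NR1H4 was 7.80 to 10.9 with siC and 1.10 to 1.48 with siI1. Of 21 textbook FXR targets, 19 were tested, 3 were lower and 9 higher, with a median log2 fold change of 0.05. Of all genes tested in Hep-G2, 23.0% were lower and 21.9% higher. These counts do not separate genes that FXR induces from genes that it represses. ABCB11 and FGF19 were not tested, with at most 2 and 3 reads in any Hep-G2 library, respectively. The subunits of the basolateral bile acid transporter diverged, as SLC51A was higher (1.68) and SLC51B lower (-1.93). KNG1, encoding kininogen, had 0.431, 0.392 and 0.508 FPKM with siC and 20.1, 20.7 and 21.3 FPKM with siI1 (log2 fold change 5.26), and FETUB (2.70) and the bile acid sulfotransferase SULT2A1 (1.97) were higher too. SLC10A1 was called higher on at most 11 reads per library. It reached 0.1 FPKM only with siI1, so the filter kept it through the group where it was high. Its call, counted among the 9, therefore cannot be read as a change. FGG, the fibrinogen γ chain, was lower (-0.68), and CYP7A1, the rate-limiting enzyme of bile acid synthesis, was not called (-0.10).

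Among 18 textbook HNF4A targets, 17 were tested in Hep-G2, 9 were higher and 2 lower, with a median log2 fold change of 0.39. APOC3 (3.72), TF (1.93) and F7 (1.72) were among the higher genes, whereas APOA2 (-0.86) and TTR (-0.77) were lower. Of 13 textbook FOXA targets, 12 were tested, 5 were higher and 3 lower, with a median of 0.05. ALB (0.95), FOXA3 itself, SERPINA1 (0.64) and CPS1 (0.50) were higher, and IGFBP1 (-1.92), TTR and AFP (-0.59) were lower. The ratio of ALB to AFP, encoding serum albumin and its fetal relative α-fetoprotein, was 1.97 to 2.05 with siC and 5.75 to 5.96 with siI1. Of 18 textbook C/EBP targets, 12 were tested, limma called 9 higher and 0 lower (0 lower at an unadjusted p below 0.05), with a median of 0.72. The iron hormone gene HAMP (4.55), HPX (2.81), ORM1 (1.99) and ORM2 (1.88) had the largest changes; the near-identical ORM genes can share reads. SAA1, SAA2 and CRP, acute phase genes on the same list, had at most 4 reads in any Hep-G2 library.

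Across these 4 lists, which share 11 of their 59 genes, 28 of 50 tested genes were higher and 7 lower in Hep-G2. The 28 include FOXA3, itself a network gene, and SLC10A1, whose call cannot be read as a change. The lists were chosen with earlier results of these data known, so these counts are a description only. Of all genes tested in Hep-G2, 21.9% were called higher and 23.0% lower. With equal sums of FPKM, the numbers higher and lower were 8 and 5 for HNF4A, 8 and 6 for FXR, 4 and 5 for FOXA and 9 and 0 for C/EBP targets, so the balance of the FOXA list turned with the scaling. Few of these genes were expressed in BE(2)-C, where 2, 6, 1 and 1 were tested on the HNF4A, FXR, FOXA and C/EBP lists. SLC51B (1.37) and PLTP (0.97) were higher there, and SLC27A5 (-0.60) and F12 (-0.42) lower.

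**Figure D4:**
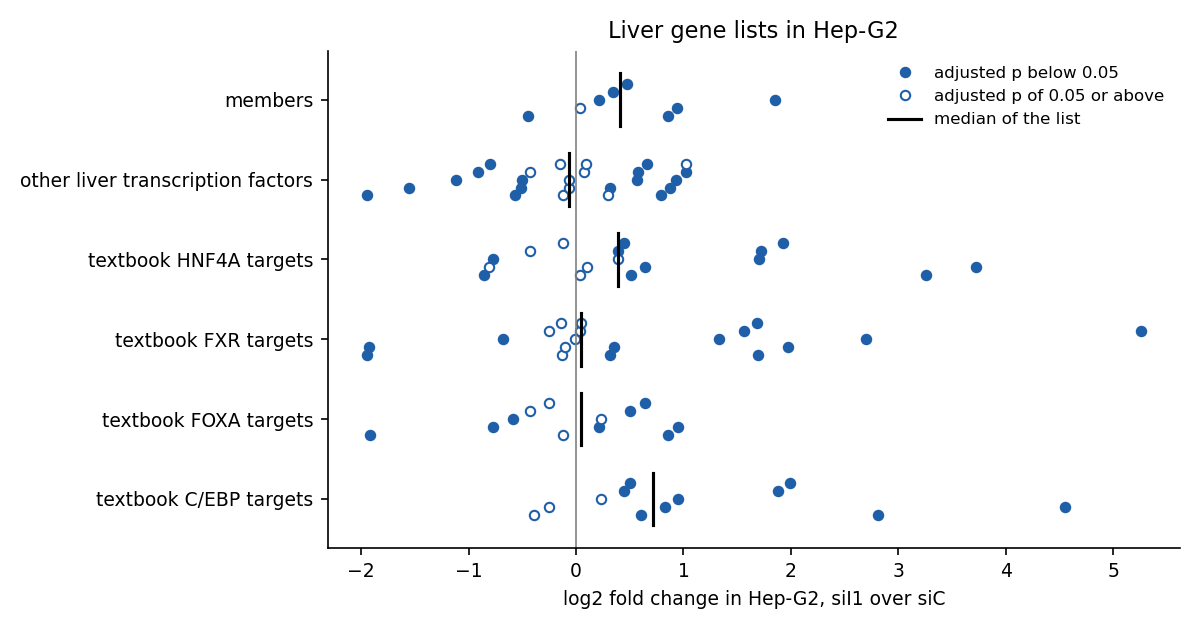
Log2 fold change in Hep-G2 of each tested gene of the network and of 5 related lists, with filled points for genes called by limma, open points for the others and a black bar at the list median. The C/EBP targets have a median of 0.72 and no filled point below 0, while the other transcription factors lie on both sides of 0 with a median of -0.07.

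Sequences upstream of the start sites are shown for CEBPA, FOXA3 and NR1H4, the network genes with the largest changes in Hep-G2, and for KNG1, the listed target with the largest change. They are the 250 bases before a RefSeq start site (GRCh38.p14), 5′ to 3′ on the strand of the gene; for FOXA3, NR1H4 and KNG1 that start lies downstream of the outermost start annotated in hg38. Of the 8 network genes, 6 had an entry, with 8 start sites; FOXA2 and PROX1 had none. Both strands were searched for TTGCNNAA (a C/EBP core), TGTTTAC (FOXA), AGGTCA (a nuclear receptor core, TGACCT on the other strand), CAAAGTCCA (HNF4A), TATAAA (the TATA box) and GGGCGG (a GC box); matches are in capitals except for GGGCGG.
CEBPA, chr19:33302535-33302784, minus strand: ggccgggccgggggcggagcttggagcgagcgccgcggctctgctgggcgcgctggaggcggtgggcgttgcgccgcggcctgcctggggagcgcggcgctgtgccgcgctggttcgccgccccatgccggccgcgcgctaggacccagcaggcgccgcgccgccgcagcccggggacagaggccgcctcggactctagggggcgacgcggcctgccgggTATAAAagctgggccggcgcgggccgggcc
FOXA3, chr19:45864076-45864325, plus strand: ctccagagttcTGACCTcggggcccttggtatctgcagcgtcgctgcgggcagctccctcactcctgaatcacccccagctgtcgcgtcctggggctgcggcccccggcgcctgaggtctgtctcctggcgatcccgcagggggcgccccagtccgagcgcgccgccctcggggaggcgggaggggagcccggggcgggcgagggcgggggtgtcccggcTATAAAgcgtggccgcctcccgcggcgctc
NR1H4, chr12:100503110-100503359, plus strand: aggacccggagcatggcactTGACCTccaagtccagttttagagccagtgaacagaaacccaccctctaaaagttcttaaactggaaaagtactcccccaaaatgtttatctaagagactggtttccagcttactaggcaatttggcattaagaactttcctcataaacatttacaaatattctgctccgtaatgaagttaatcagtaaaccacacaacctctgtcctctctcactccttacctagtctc
KNG1, chr3:186717109-186717358, plus strand: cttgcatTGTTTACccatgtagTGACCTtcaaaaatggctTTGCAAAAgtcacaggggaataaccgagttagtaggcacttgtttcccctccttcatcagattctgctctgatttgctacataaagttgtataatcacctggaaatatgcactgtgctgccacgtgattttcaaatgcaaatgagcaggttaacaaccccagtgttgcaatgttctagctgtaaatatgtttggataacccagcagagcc

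The TATA box letters began 30 bases before the start in CEBPA and FOXA3 and 29 bases before it at 1 of the 2 start sites of CEBPB, and 10.7% of all 35116 upstream windows held it. The GC content was 81.2% for CEBPA, 75.2% for FOXA3 and 42.0% for NR1H4, against a median of 58.0%. The nuclear receptor core was present in FOXA3 and NR1H4 and in 12.1% of all windows. No match to the C/EBP, FOXA or HNF4A letters lay in the 8 windows of the network genes, and 9.05%, 2.98% and 0.325% of all windows held them. In the KNG1 window the FOXA letters began 243, the nuclear receptor core 228 and the C/EBP core 210 bases before the start. The GC box was found in all windows of HNF4A, FOXA1, FOXA3, CEBPA and CEBPB and in 42.6% of all windows. These matches are descriptions of letters in a window and were not tested as binding sites.

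The hepatocyte and neuroblastoma markers followed the labels, while some cholangiocyte and stromal markers were expressed in both lines. All 12 hepatocyte markers were expressed in Hep-G2, ALB being the most abundant, and their summed FPKM was 11354, 11746 and 11423 with siC, against 16129, 18512 and 18748 with siI1. The sum hides a split, as 7 of the 12 were called higher, among them TF and APOA1 (1.70), and 3 lower, namely APOA2, TTR and AFP. Of all tested genes, 21.9% were higher and 23.0% lower in Hep-G2, and 13.3% were higher and 14.8% lower in BE(2)-C. In BE(2)-C 11 of the 12 hepatocyte markers had at most 3 reads in any library and 5 had none, so the name of the network does not describe BE(2)-C. The 12 neuroblastoma markers were all expressed in BE(2)-C (MYCN most abundant, sums of 3727 to 4125 FPKM), and 5 were lower and 3 higher; in Hep-G2 11 of them had at most 3 reads. Of 10 cholangiocyte markers, 6 were tested in Hep-G2, where SPP1 (-1.09), SOX9 (-0.77) and KRT19 (-0.48) were lower and EPCAM (0.72) was higher, and CFTR and MUC1 had at most 3 reads. The cholangiocyte sums, led by SPP1, were 1365, 1491 and 1425 FPKM with siC and 780, 910 and 930 FPKM with siI1 in Hep-G2. They were 12.3 to 12.8 FPKM with siC and 6.57 to 8.26 FPKM with siI1 in BE(2)-C, led by AQP1. Of 11 stromal and blood cell markers, 6 were tested in Hep-G2 and 2 were higher, ACTA2 (1.90) and HBB, the latter with at most 12 reads. HBB passed the filter only through siI1, the group where it was high, so its call cannot be read as a change. The Hep-G2 sums of the 11 markers, led by ACTA2, were 27.6 to 28.0 FPKM with siC and 87.3 to 111 FPKM with siI1. There DCN, LUM, PTPRC and CD68 had at most 6 reads. The BE(2)-C sums were 26.4 to 30.9 FPKM with siC and 36.4 to 38.8 FPKM with siI1. There LUM (1.08) and DCN (0.66) were called higher and ACTA2 lower (-0.88), while PDGFRB, the most abundant, was not called (-0.10). The part of these marker changes in the network's changes was not tested, and in bulk RNA fewer cells with a transcript and less of it per cell cannot be told apart.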

How the data were processed

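Poly-A RNA was measured in 3 siC and 3 siI1 libraries of each line. The authors trimmed reads with cutadapt 1.14, aligned them to hg38 with HISAT2 2.1.0, counted them per gene with featureCounts 1.5.3 on Ensembl and scaled each line with edgeR 3.30.3 (TMM). The deposited tables hold FPKM values per library, although their headers name no unit; FPKM times gene length gave whole reads for 100.0% of nonzero values (tolerance 0.05 reads). Their fold change, p-value and FDR columns, the results of the authors' own comparison, were not used. Strand-aware counting is not stated, and a gene and its antisense partner cannot be separated.

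Genes with 0.1 FPKM in 3 or more of 6 libraries were compared on log2(FPKM + 0.1) with limma 3.58.1 in R 4.3.3 (mean-variance trend, Benjamini-Hochberg over all tested genes, threshold 0.05). Tested on simulated data, this recovered most changed genes with the right sign, but the share of false calls exceeded the nominal level in both lines. A joint limma model tested the difference between lines. With 3 libraries against 3, exact permutation reaches no two-sided p under 0.1, so calls rest on limma. Alternatives changed the pseudocount, filter, trend, scaling, unit, replicate block, threshold, minimum fold and libraries. The members and lists were chosen with earlier results of these data known. Of each list, the called genes with the largest absolute change were named, at most 4 per direction and line. NR0B2, ONECUT1, RXRA and noncoding neighbours were named beside these. SLC51A, CYP7A1, ABCB11, FGF19, SAA1, SAA2, CRP, TTC6 and the markers named as undetected were added after their values were seen. Python 3.11.15, NumPy 2.4.6, pandas 2.3.3 and Matplotlib 3.10.9 were used, with GENCODE coordinates and RefSeq upstream sequences.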

Additional observations from a re-analysis of the deposited data

Results flagged for a closer look

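The effect of the knockdown differed between the lines, by the limma test of the difference itself, for 24 of the 41 listed genes that were tested in both. Of all 15362 genes tested in both lines, 40.2% differed. The value given is the log2 fold change in Hep-G2 minus that in BE(2)-C. Among the network genes it was 3.40 for CEBPA, 0.80 for CEBPB and -1.12 for PROX1. The change was more positive in Hep-G2 for ACTA2 (2.77), CEBPA-DT (1.99), CEBPG (0.57), GATA4 (0.67), HAMP (4.13), HHEX (0.45), HLF (0.97), KLF15 (1.06), NR1H3 (1.61), NR2F2 (0.71), PLTP (0.59), PROX1-AS1 (0.89), RXRA (0.38) and SLC51A (1.66). It was more negative in Hep-G2 for HNF4G (-1.30), IGF2BP3 (-0.45), NR2F1 (-1.02), ONECUT2 (-2.10), PPARGC1A (-0.78), SDC1 (-0.41) and SLC51B (-3.29). In BE(2)-C HNF4G passed the filter only through siI1, the group where it was high, on 4 to 13 reads per library. Its difference between the lines therefore rests in part on the filter. IGF2BP1 itself did not reach the threshold (0.02, 95% interval -0.19 to 0.22). Groups of 3 libraries are too small for a test of single outlying libraries.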

How the results depend on the processing

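In Hep-G2, 6 network genes were higher in the main analysis and 4 to 6 under the alternatives, apart from a required change of at least 1 on the log2 scale (either sign), which by construction left 1. The number lower was 1, but it was 0 with median centring, without a filter, without the trend, with an adjusted p below 0.01 and with the minimum fold. Leaving out single libraries gave 0 to 1 lower genes. In BE(2)-C, 2 genes were lower and 1 was higher, and the minimum fold left 1 lower and 0 higher. The number differing between the lines was 3 under all 17 alternatives run. CEBPB in Hep-G2, which was never called, changed sign with equal sums of FPKM (log2 fold change -0.12), without siC replicate 1 (-0.02) and without siI1 replicate 3 (-0.04), its range without single libraries being -0.04 to 0.12. The causes were not tested. HNF4A was also not called without the trend (0.21, adjusted p = 0.055), and PROX1 in Hep-G2 not without the trend (-0.45, adjusted p = 0.073) or the filter (-0.45, adjusted p = 0.062). With the minimum fold, Hep-G2 had 3 lower and 1 higher of the other transcription factors and BE(2)-C 0 in either direction; with an adjusted p below 0.01, 1 was higher in BE(2)-C. Textbook targets in Hep-G2 numbered, with the minimum fold, 0 lower and 5 higher for HNF4A, 1 lower and 0 higher for FOXA and 4 higher for C/EBP. Without division by gene length, 4 HNF4A targets were lower. This alternative kept the scaling by the authors and used RPM, the read counts scaled by library size only. Its pseudocount was 0.5 RPM in place of 0.1 FPKM, where 1 read was 0.064 to 0.075 RPM in Hep-G2.

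Same-numbered siC and siI1 libraries had deviations that correlated at 0.06, 0.04 and -0.01 (Hep-G2) and at 0.02, -0.01 and -0.00 (BE(2)-C). No shared deviation was thus seen, but the labels do not say whether same-numbered libraries were prepared together. With the replicate block, Hep-G2 had 1 network gene lower and 6 higher, BE(2)-C had 2 lower and 1 higher, and 3 differed between the lines. Low counts limit CEBPA in BE(2)-C, with 13 to 52 reads per library.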
